A study of Mus musculus with 2 samples.

Results

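Clustered POU5F1 peaks were 301 of the 5515 peaks that the authors listed for the whole series on the mouse genome build mm9. Peaks were sorted by their centre, consecutive centres at most 20 kb apart were joined, and groups of 3 or more peaks were kept, which gave 88 groups. A stretch of chromosome 6 holding 36 peaks was left out beforehand. A further 858 peaks lay in pairs and 4320 stood alone. The rule used peak positions only, so the closeness of the members describes how they were chosen. Signals, replicate support, genes and sequence were not part of it, although the positions come from the same ChIP-seq data.

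The measurement was chromatin immunoprecipitation followed by sequencing (ChIP-seq) with an antibody against POU5F1, also called OCT4. The cells were E14TG2a.4, a male embryonic stem cell line of strain 129/Ola, labelled with an embryonic age of 3.5 days. There was 1 group with 2 biological replicates, and the labels give no second condition and no treatment. Both replicates come from 1 line, and the labels do not say whether they were grown separately. The control experiment that the labels name was not analysed here. The authors' lists held 1330 peaks for replicate 1 and 6324 for replicate 2, read counts were not used, and the depth of the libraries is unknown.

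POU5F1 is a POU-domain transcription factor that keeps embryonic stem cells pluripotent. It binds an octamer sequence, often next to a SOX site that its partner SOX2 occupies, and the joined sites are called the composite element. Genes of the pluripotency network are known for several binding sites near each other. Small nuclear RNA genes, which encode parts of the spliceosome, are also known targets of POU-domain factors: an octamer is common in their distal promoter element, where POU2F1 (OCT1), a relative of POU5F1, is known to bind.

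Composite elements are shown for 4 of the groups described below, to let a reader compare the letters at a known pluripotency enhancer with those at other groups. The element searched was CATTGT, then C or T, then ATGCAAAT, on both strands with up to 2 mismatches. All sequences are from NCBIM37 (mm9), 5′ to 3′ on the strand of the match. Capitals mark the match and the coordinates are those of the capitals.
Sox2, strongest peak, chr3:34552971-34552985, plus strand: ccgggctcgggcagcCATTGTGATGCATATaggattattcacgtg
Pipox, strongest peak, chr11:77707555-77707569, plus strand: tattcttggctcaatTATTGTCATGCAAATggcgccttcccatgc
Grik3, second strongest peak, chr4:125222511-125222525, minus strand: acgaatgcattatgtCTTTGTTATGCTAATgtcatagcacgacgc
Pecr, second strongest peak, chr1:72275742-72275756, minus strand: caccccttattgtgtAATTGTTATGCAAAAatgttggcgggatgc
The match at Pipox had 1 mismatch and the other three had 2 each.

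Exact octamers, ATGCAAAT, are shown where they lay in the strongest peak of a group beside a pluripotency, stem cell or Polycomb gene, and for a distant group whose nearest gene is Mef2c, in which each of the 3 peaks held one. The Mef2c group was chosen after its values were seen. Its first peak was in neither replicate list, its second in both and its last in that of replicate 2 only. Capitals mark the octamer.
Jarid2, chr13:44801037-44801044, minus strand: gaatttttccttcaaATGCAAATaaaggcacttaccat
Mtf2, chr5:108505971-108505978, minus strand: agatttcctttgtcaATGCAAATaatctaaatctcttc
Klf2 and Gm10282, chr8:74835207-74835214, plus strand: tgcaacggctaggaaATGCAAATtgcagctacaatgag
Mef2c, first peak, chr13:83869302-83869309, minus strand: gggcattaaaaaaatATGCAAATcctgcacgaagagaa
Mef2c, second peak, chr13:83874066-83874073, plus strand: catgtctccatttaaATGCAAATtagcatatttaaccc
Mef2c, last peak, chr13:83878077-83878084, plus strand: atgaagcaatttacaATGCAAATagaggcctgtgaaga

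Octamers upstream of small nuclear RNA genes are shown for the 10 genes under clustered peaks that had one, which lay in 4 groups. The groups wholly on U1 or U5 genes, beside Eapp and Kif2c, had none. Each line is on the strand of the gene, the capitals mark the octamer, or its reverse complement at U4, and the coordinates are those of the capitals. The first 4 genes are those of the group beside Pecr and Mreg, and the last 4 those of the group beside Rdm1 and Arl4d.
U2, chr1:72272584-72272591, plus strand: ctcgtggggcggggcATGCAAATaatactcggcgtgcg
AC120136.2, chr1:72283290-72283297, plus strand: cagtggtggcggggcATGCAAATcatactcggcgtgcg
AC120136.1, chr1:72290558-72290565, plus strand: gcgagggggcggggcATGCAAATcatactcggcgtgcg
AC120136.3, chr1:72301352-72301359, plus strand: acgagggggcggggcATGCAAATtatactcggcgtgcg
U4, chr5:115940036-115940043, plus strand: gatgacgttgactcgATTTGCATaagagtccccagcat
U1, chr11:87239991-87239998, plus strand: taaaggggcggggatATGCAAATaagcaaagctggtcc
U2, chr11:101488458-101488465, plus strand: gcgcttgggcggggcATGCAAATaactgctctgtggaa
U2, chr11:101502831-101502838, plus strand: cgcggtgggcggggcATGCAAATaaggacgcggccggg
U2, chr11:101507470-101507477, minus strand: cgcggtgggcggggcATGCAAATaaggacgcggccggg
U2, chr11:101519321-101519328, plus strand: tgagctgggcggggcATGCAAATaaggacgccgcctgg
All 8 sequences of these 2 groups carried ggcggggc directly before the octamer. The octamers began 222 to 233 bp before the annotated 5′ end of the gene.

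The groups were small. Of the 88, 67 held 3 peaks, 11 held 4, 5 held 5, 4 held 6 and 1 held 7. They lay on 19 chromosomes, the autosomes, with none on the sex chromosomes. The share of all peaks on the sex chromosomes is not given here, so this is not read as a trait of the groups. A group spanned a median of 19.6 kb, from 1.26 to 49.6 kb. The 213 joined gaps had a median of 6.92 kb, and 25 of them were under 1 kb. At the limit of 20 kb, the 2 widest joined gaps were 19.93 and 19.29 kb, and the 2 narrowest gaps that kept a peak out of a group were 20.71 and 21.09 kb.

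The groups with the most peaks lay largely on small RNA genes. A small RNA gene of the GENCODE M1 annotation (snRNA, snoRNA, rRNA, miRNA or miscellaneous RNA) lay within 1 kb of the centre of 36 of the 301 clustered peaks, which is 12.0% (exact 95% interval 8.52 to 16.2%). Over all 5515 peaks the share was 1.43%, in pairs 1.05% and among lone peaks 0.787%. In groups built from the replicate 1 list alone it was 36.8% (7 of 19 peaks in 5 groups, interval 16.3 to 61.6%), from the replicate 2 list alone 10.1%, and without peaks of mostly repeated sequence 4.67% (10 of 214). The shares over all peaks of those lists are not given here, and 1.43% is not their background. The peak itself overlapped the gene in 34 of the 36. By type, 25 clustered peaks lay beside snRNA genes (8.31%, beside 0.798% of all peaks), 5 beside rRNA genes (1.66%, beside 0.163%) and 4 beside snoRNA genes (1.33%, beside 0.236%). A miscellaneous RNA gene (0.109% of all peaks) and a miRNA gene (0.127%) accounted for 1 peak each. Groups thus held 25 of the 44 peaks of the list beside snRNA genes. Genes that stand in arrays give peaks that stand close together, so grouping by distance favours them by construction, and these counts were made after the values were seen. In all, 10 groups had such a peak and 8 had at least 2, and in those 8 groups 34 of 42 peaks lay beside a small RNA gene.

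The largest group, 7 peaks over 42.1 kb at chr12:55797642-55839736 beside Eapp, an E2F-associated phosphoprotein gene, and Gm16382, had a U1 gene under each of its peaks. U1 RNA recognises the start of introns. The signals of the 7 peaks along the chromosome were 6.46, 6.46, 5.58, 9.69, 7.34, 8.22 and 7.93 in the authors' unit, whose scaling is not stated. All 7 were in the replicate 2 list and 5 in the replicate 1 list, with replicate 1 signals of 6.84, 9.33, 7.47, 7.47 and 6.22. The strongest was 1.74 times the weakest, near the median of 1.65 over the 88 groups.

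U2 genes, whose RNA pairs with the intron branch point, underlay a pair of groups. At chr11:101488674-101519931, beside Rdm1 and Arl4d, 4 of 5 peaks lay on U2 genes, with signals of 4.41, 6.17, 9.40 and 7.05, and the fifth, off the genes, had 5.33. At chr1:72272743-72302189, between Mreg and Pecr, 4 of 6 peaks lay on a U2 gene or on a gene annotated only as snRNA, with 5.87, 4.70, 6.17 and 11.75. The peak of that group with a composite element, at 10.87, was one of the other two. Each group had all its peaks in the replicate 2 list, and in the replicate 1 list 1 of the 5 and 2 of the 6.

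A group of 6 peaks spanned 49.0 kb of Tex14, a gene of germ cell intercellular bridges, at chr11:87236278-87285243. Its first 2 peaks lay on U1 genes, with signals of 7.64 and 6.46, and the other 4 on U3 snoRNA genes, whose RNA serves in ribosomal RNA processing, with 6.75, 5.87, 6.75 and 7.05. The first 2 were in both replicate lists and the 4 on U3 genes in that of replicate 2 only. Tex14 was on the stem cell gene list, so its entry among the list genes below rests on a group whose every peak lay on a small RNA gene.

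Peaks also lined up on 3 further arrays. A group of 3 peaks of 21.3 kb beside Kif2c, a mitotic kinesin gene, had a U5 gene under each peak and signals of 6.17, 6.46 and 6.71. Beside Pla2g1b and Sirt4, 2 of 4 peaks lay on neighbouring U4 genes, with 6.54 and 7.05, and the other two had 8.84 and 7.68. That was the single group of the 88 in which each member was in both replicate lists. In a group of 6 peaks of 49.6 kb beside Fcgr1, an immunoglobulin receptor gene, 3 lay on U1 genes, with 6.57, 5.29 and 4.41. Of the 6 peaks, 3 were in neither replicate list, the U1 peak of 4.41 among them. The groups beside Kif2c and Pla2g1b were named after their values were seen.

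The 5S ribosomal RNA array on chromosome 8 gave a group of 5 peaks over 31.1 kb, at chr8:126116650-126147738. Their signals were 4.11, 7.05, 4.11, 2.93 and 7.34, 4 were in the replicate 2 list and 1 in that of replicate 1. Of the 31-base words of these peaks 100% occurred more than once in the genome, with medians of 44 to 49 copies per peak. In the U1 group beside Eapp 36.2 to 100% of the words were repeated, at least 50% of them in 6 of the 7 peaks, with medians of 1 to 2 copies. The U3 peaks of Tex14 had 51.9 to 71.2% and a median of 4 copies, and the U5 group 13.9 to 24.3% and 1 copy. The sources do not say how reads that match several copies were placed, and the part of this in these peaks was not tested.

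**Figure D1:**
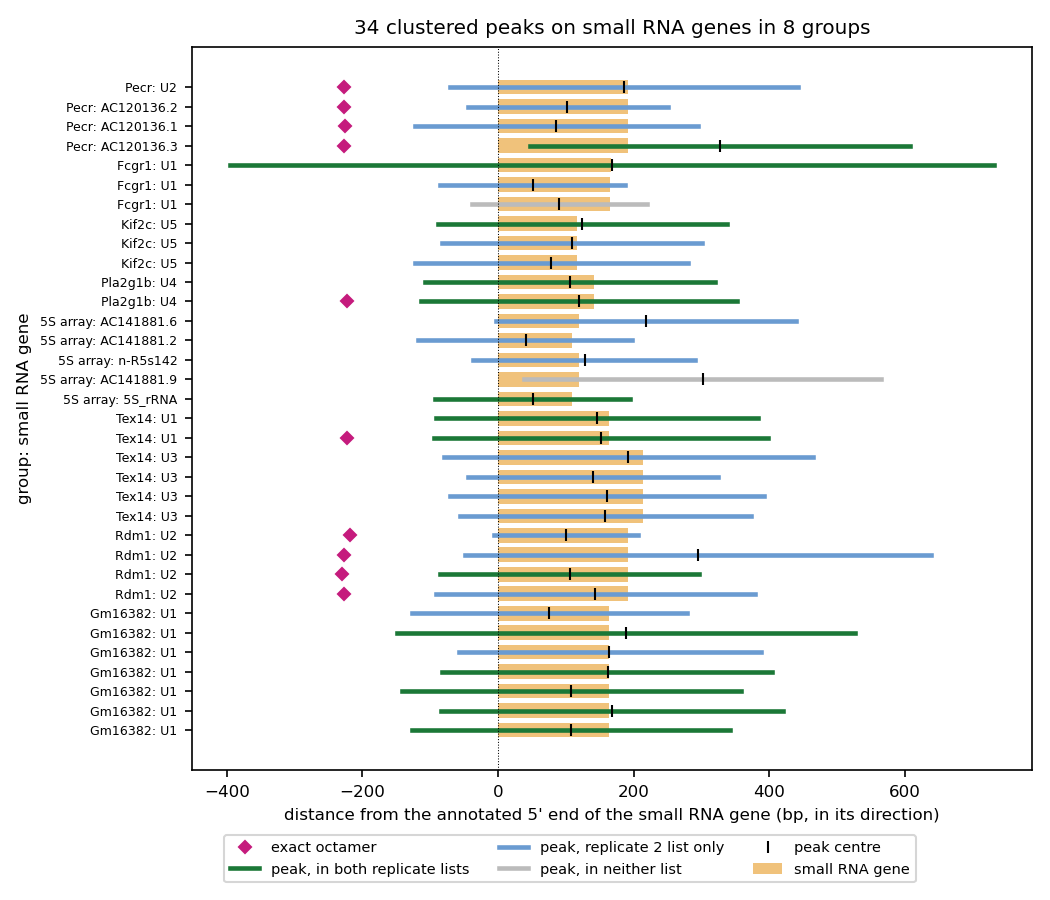
The 34 peaks on small RNA genes in the 8 groups with at least 2 such peaks, each as a line from its first to its last base, placed by distance in bp from the annotated 5′ end of the gene in the direction of transcription. Boxes are genes, ticks peak centres, diamonds exact octamers, and colours the replicate lists that hold the peak. Each peak overlaps its gene, not always in full, while the 10 octamers lie upstream of the peaks.

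The peaks overlapped the RNA genes themselves, although some centres lay beyond the end of the gene. For the 25 peaks at snRNA genes in these groups, the centre lay a median of 119.0 bp after the 5′ end, from 51 to 326.5 bp. The octamers shown above lay upstream: an exact octamer was present in the 300 bp before 10 of the 25 snRNA genes, and 0 of the 10 was inside the listed peak. The gap from the octamer to the nearest edge of the peak was 100 to 270 bp. All 5 annotated U2 genes beside clustered peaks had an upstream octamer, as had all 8 beside any peak, against 1 of 43 with no peak. For U1 it was 1 of 12 genes beside clustered peaks and 3 of 188 with no peak, and over all snRNA genes with no peak 43 of 1379, or 3.12%. Many annotated copies of these genes are pseudogenes without a promoter of their own, and an octamer is a match of letters, not a measured site.

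Pluripotency regulators lay beside 8 groups, and at the strongest of these 1 peak stood far above its neighbours. Of the 27 pluripotency regulators in the list, 8 had a transcription start site (TSS) within 50 kb of a clustered peak: Sox2, Esrrb, Klf2, Klf5, Zscan10, Rif1, Etv5 and Tcf7l1. That is 29.6%, beside 0.715% of all 22238 protein-coding symbols. Most of the list was near POU5F1 peaks of some kind, 21 of 27 or 77.8%, beside 27.3% of all symbols, so 13 of the regulators near a peak were near pairs or lone peaks only. From the replicate 1 list alone, groups lay near 0 of the 27, and from the replicate 2 list alone near 6. With a gap of 10 kb the number was 2, and with −log10 p of at least 10 it was 1. In this order these settings gave 5, 114, 45 and 21 groups. The share of all symbols near a group is not given for them, so these counts cannot be set against 0.715%. The list was chosen with earlier results of these data known.

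At Rif1, which encodes a replication timing and telomere factor needed in embryonic stem cells, the 3 peaks at chr2:51926751-51945985 had signals of 4.41, 22.91 and 7.64. The second was the highest of all clustered peaks, 576 bp upstream of a TSS, with 19.91 in replicate 1 and 42.32 in replicate 2. The third, at another annotated TSS, was also in both lists, with 6.84 and 14.36. The first was found in replicate 2 alone, with 6.80. Both replicates therefore ranked the same peak of this locus first.

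At Sox2, encoding the partner factor of POU5F1, the 3 peaks at chr3:34545178-34567669 had signals of 4.24, 19.09 and 4.99. The middle one, 3.91 kb after the TSS, carried the composite element shown above and had 15.55 in replicate 1 and 30.99 in replicate 2. A downstream enhancer of Sox2 with a composite of this kind is well known. The outer 2 were in the replicate 2 list only, at 4.93 and 6.80, so replicate 1 listed a single peak here.

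Genes of Polycomb repressive complex 2 lay beside 3 groups. Jarid2, a cofactor of the complex and itself a known POU5F1 target, had peaks of 16.44, 5.87 and 5.92 at chr13:44800695-44824228. The strongest lay 23.8 kb upstream with an octamer, and the last within 1 kb of the TSS. Mtf2, another cofactor, had 14.68, 4.41 and 5.29 within its own gene, and the strongest held the octamer shown above, outside the window searched for the counts below. Eed, a core subunit, had 4 peaks of 6.17, 7.76, 3.82 and 4.63. In all, 3 of 29 Polycomb genes were near a group, or 10.3%, beside 0.715% of all protein-coding symbols. Near any peak were 15, or 51.7%, beside 27.3% of all symbols. Replicate 1 held the strongest peak at Jarid2 (11.05) and at Mtf2 (11.62), and no other peak of either group.

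The other regulators had lower signals. Dppa5a, a stem cell RNA-binding protein gene, had 4 peaks over 9.23 kb, of 7.34, 10.28, 7.64 and 4.99. All were in the replicate 2 list, and the strongest alone was in that of replicate 1. The first of the 4 had Gsta2 as its nearest gene. Tcf7l1, the transcription factor that represses pluripotency genes in the absence of Wnt, had 7.93, 4.25, 9.40 and 4.66 over 37.0 kb, with the first and the third in both lists. At Esrrb, an orphan nuclear receptor gene, the values were 7.93, 4.99 and 4.41, all in introns. All 3 were in the replicate 2 list, and the strongest alone was in that of replicate 1.

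Klf2, a Krüppel-like factor gene, shared a group of 4 with Gm10282, of 4.70, 8.81, 6.17 and 6.46 over 42.0 kb. Of these the last alone was in the replicate 1 list, and the first was in neither list. Klf5 had 4.41, 4.46 and 5.58, between 26.2 and 55.5 kb beyond its TSS, and here the first was listed in replicate 1 only. Etv5, an ETS factor gene, had 9.47 at a promoter and 2 intronic peaks of 4.41 that neither replicate list held, so 1 of its 3 peaks had replicate support. At Zscan10, a zinc finger regulator of stem cells, 4.70, 6.76 and 8.22 lay at promoters, the first at that of Zfp13. Of these peaks 1 was in neither replicate list, and the strongest was not in that of replicate 1.

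**Figure D2:**
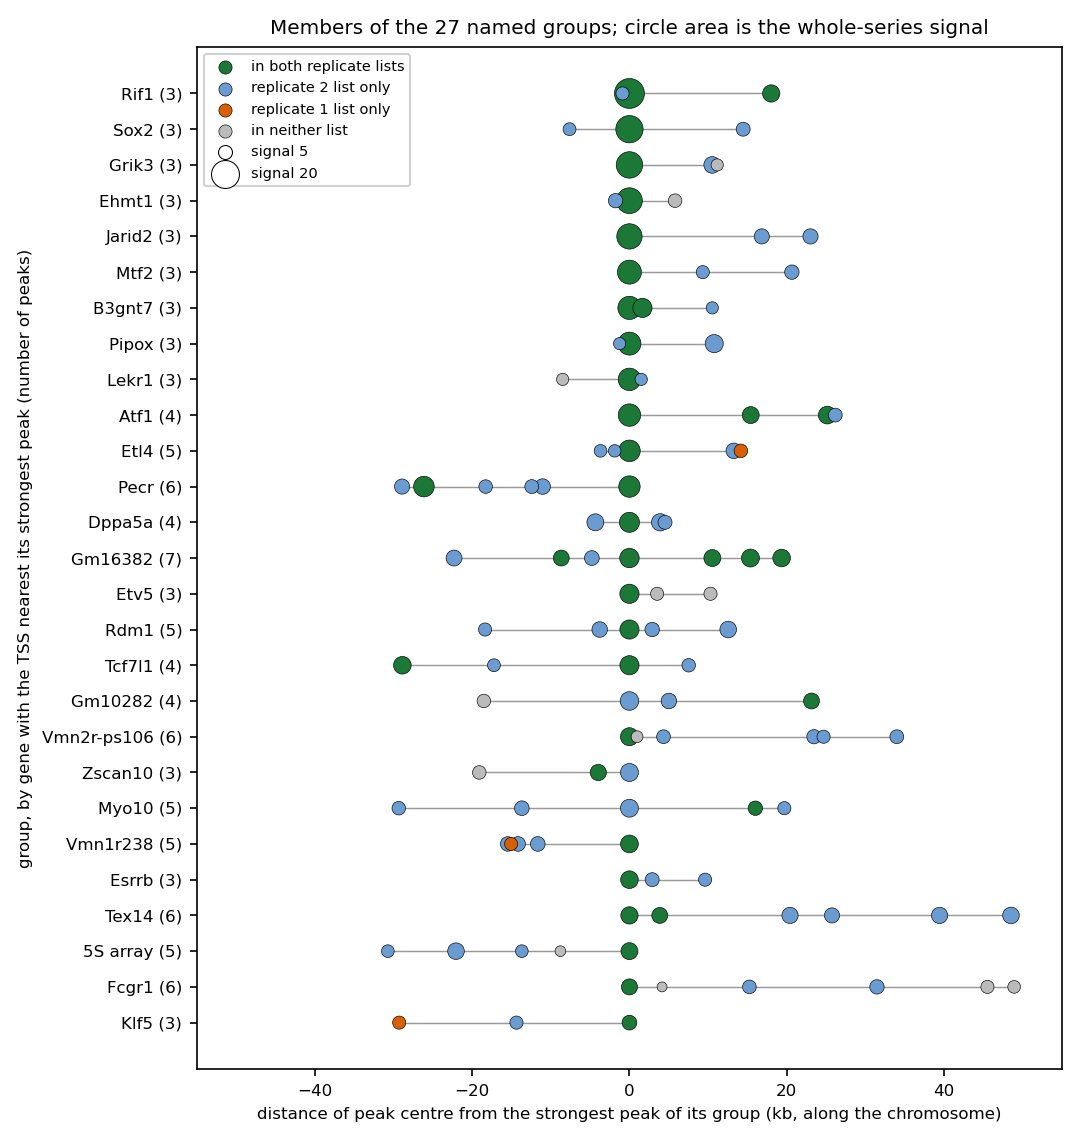
Peaks of the 27 groups named by rule, each row a group labelled by the gene whose TSS is nearest to its strongest peak, or as the 5S array, with the number of peaks. The x axis is the distance in kb from the strongest peak, circle area the whole-series signal, and colour the replicate lists that hold the peak. Rows are ordered by the strongest signal, 22.91 at Rif1 to 5.58 at Klf5, and in the upper rows 1 large circle stands beside smaller ones.

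Of the 10 groups with the highest signals, 6 lay at genes outside the pluripotency, stem cell and Polycomb lists: Grik3, Ehmt1, B3gnt7, Pipox, Lekr1 and Atf1. At Grik3, a kainate receptor subunit gene, an intronic peak of 17.91 stood with 7.05 and 3.82, and the composite element lay in the second of these. Ehmt1, encoding the histone H3 lysine methyltransferase GLP, had an intronic peak of 17.03 between 5.29 and 4.70. The weakest peak at Grik3 and the weakest at Ehmt1 were in neither replicate list. B3gnt7, a glycosyltransferase gene, had 13.80, 9.40 and 3.82. The last of these peaks consisted of repeated sequence with a median of 532 copies.

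Pipox, encoding a peroxisomal sarcosine oxidase, had 3.82, 13.51 and 8.40, with the strongest 23.5 bp from the TSS and the composite element in it. At Lekr1 the signals were 3.82, 12.91 and 3.82, and the first peak was in neither replicate list. At Atf1, a transcription factor gene of the CREB family, they were 12.87, 7.34, 8.07 and 4.89, with 3 of the 4 in both lists. The other 9 groups of the 10 had 1 or 2 members in the replicate 1 list.

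Etl4, an enhancer trap locus gene, held 5 intronic peaks of 4.11, 3.98, 11.91, 6.17 and 4.70, and Myo10, an unconventional myosin gene, 5 of 4.70, 5.49, 8.22, 5.29 and 4.41 over 49.3 kb. The group of 6 beside Vmn2r-ps106 and the group of 5 beside Vmn1r238, both vomeronasal receptor loci, had signals of 3.59 to 8.32 and 4.39 to 8.07. In both groups each peak had over 50% of its 31-base words repeated in the genome.

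Repeated sequence was more common in groups, and the excess lay in the peaks beside small RNA genes. At least 50% of the 31-base words recurred in the genome in 60 of 301 clustered peaks, or 19.9% (15.6 to 24.9%), beside 14.4% of all peaks. Of the 36 beside small RNA genes 21 were of this kind, and of the other 265 clustered peaks 39, or 14.7%, beside 14% of all peaks away from such genes. In 6 groups this held for every member. In 16 groups 53 members shared a 31-base word with another member of the same group, and in 5 of these groups every member did. No test compares these shares, since neighbouring peaks are not independent.

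Replicate support of clustered peaks was close to that of the whole list. The replicate 1 list held 78 of 301, or 25.9% (21.1 to 31.3%), beside 22.7% of all peaks. The replicate 2 list held 259, or 86.0% (81.6 to 89.8%), beside 86.7%. Both lists held 74 (24.6%, beside 21.9%), and neither list held 38 (12.6%, beside 12.5%). Each interval includes the share of the whole list.

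Support within a group followed the signal. Median signals were 7.93 for the 74 members in both lists, 5.29 for the 185 in replicate 2 only, 4.55 for the 4 in replicate 1 only and 4.26 for the 38 in neither. Of the 88 strongest members, 46 were in the replicate 1 list (52.3%) and 85 in the replicate 2 list (96.6%). Of the 213 other members, 32 and 174 (81.7%) were. The whole-series signal and the replicate lists come from the same libraries, so this is a description.

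As groups, 54 of 88 had all members in the replicate 2 list, and 63 had at least 3. In the replicate 1 list 3 groups had at least 3 members, 14 had 2, 38 had 1 and 33 had none. The 3 were those beside Gm16382, Pla2g1b and Atf1, of which the first pair contained snRNA genes. When the rule was applied to each replicate's own list, replicate 2 gave 114 groups with 385 peaks, which overlapped 68 of the 88, and replicate 1 gave 5 groups with 19 peaks, which overlapped 4. Groups were thus seen mostly in the replicate 2 and whole-series lists, and the list of replicate 1 was the shortest of the 3.

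Over the 74 members in both lists, replicate signals had a Spearman's rho of 0.484, beside 0.602 over all 1204 such peaks outside the left-out stretch. These are correlations across peaks of 1 pair of replicates, which share the libraries. Of 14 groups with at least 2 members in both lists, 3 had a tie for the strongest in replicate 1 and were left aside. In the other 11 the strongest member was the same in both replicates in 6 and differed in 5. With exactly 2 such members it was the same in 3 of 8, and with 3 or more in 3 of 3.

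**Figure D3:**
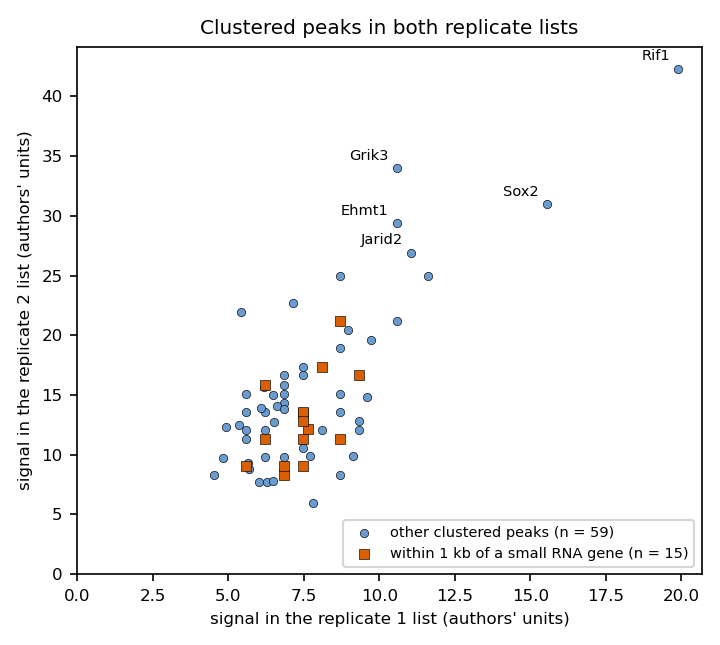
Signals of the 74 clustered peaks held by both replicate lists, replicate 1 on the x axis and replicate 2 on the y axis, in the authors' unit. Squares are the 15 peaks within 1 kb of a small RNA gene; the peaks at Rif1, Sox2, Grik3, Ehmt1 and Jarid2 are high in both replicates, and most other points crowd at lower signals.

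Signals overall were not higher in groups. The median was 5.58 for clustered peaks and 5.58 for all peaks. The strongest member of a group had a median of 7.64, the ratio of the strongest to the weakest member had a median of 1.65 and reached 5.20, and in 9 groups the strongest was more than 2 times the next. The 36 peaks beside small RNA genes had a median of 6.50, from 2.93 to 11.75, against 5.48 for the 265 others. In the replicate 1 list were 15 of the 36 (41.7%) and 63 of the 265 (23.8%). Of all 79 peaks beside small RNA genes, in groups or not, 28 were in that list.

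Clustered peaks lay closer to genes than the list as a whole, with a median of 14 kb to the nearest protein-coding TSS beside 23.0 kb. Promoters, within 1 kb of a TSS, held 33 (11%, beside 8.25%), introns 81 (26.9%, beside 33.1%), exons 5 (1.66%, beside 1.96%) and the rest of the genome 182 (60.5%, beside 56.7%). Of the 88 groups, 26 had a member at a promoter, 20 lay within 1 gene body, 68 had the same nearest gene for all members and 40 were wholly intergenic.

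Sequence elements were searched within 100 bp on each side of the centre. The composite element was found in 15 of 301 clustered peaks, or 4.98% (2.82 to 8.09%), beside 9.30% of all peaks, 8.62% in pairs and 9.81% of lone peaks. It occurred in 14 groups, in 13 of them once and at Lrp2, encoding the endocytic receptor megalin, in 2 of 3 peaks. None of the 36 peaks beside small RNA genes held it, and among the other 265 the count was the same 15. The octamer, which lies inside the full composite and inside the PORE element, was found in 39 (13.0%, beside 13.4%).

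The octamer occurred in 32 groups, in 5 of them in at least 2 members and in 2 of them in each member. These 2 were the group with Mef2c, a MADS-box factor gene, as its nearest protein-coding gene, with signals of 4.11, 7.64 and 4.41, and the group beside Bai2, an adhesion receptor gene, with 4.11, 6.46 and 6.46. The Mef2c group stood 205.3 to 214.1 kb beyond the TSS of that gene. Its last peak lay within 1 kb of Mir9-2, a gene of the neural microRNA miR-9. Its first peak was in neither replicate list. Both groups were named after their values were seen.

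Other elements were rare. MORE, 2 copies of ATGCAT with 1 mismatch, was found in 4 (1.33%, beside 2.38%), and PORE, ATTTGA followed directly by AATGCAAAT with 2 mismatches, in 5 (1.66%, beside 1.76%). The SOX site CCATTGT was found in 6.64% beside 7.82%, the KLF site GGGTGTGG in 2.99% beside 2.41% and the ESRRB site TCAAGGTCA in 0.332% beside 1.38%, all exact and on both strands. Any of these 4 POU elements (composite, octamer, MORE, PORE) was present in 55 clustered peaks (18.3%, beside 21.9%). A peak without a match may still hold a variant of these letters.

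**Figure D4:**
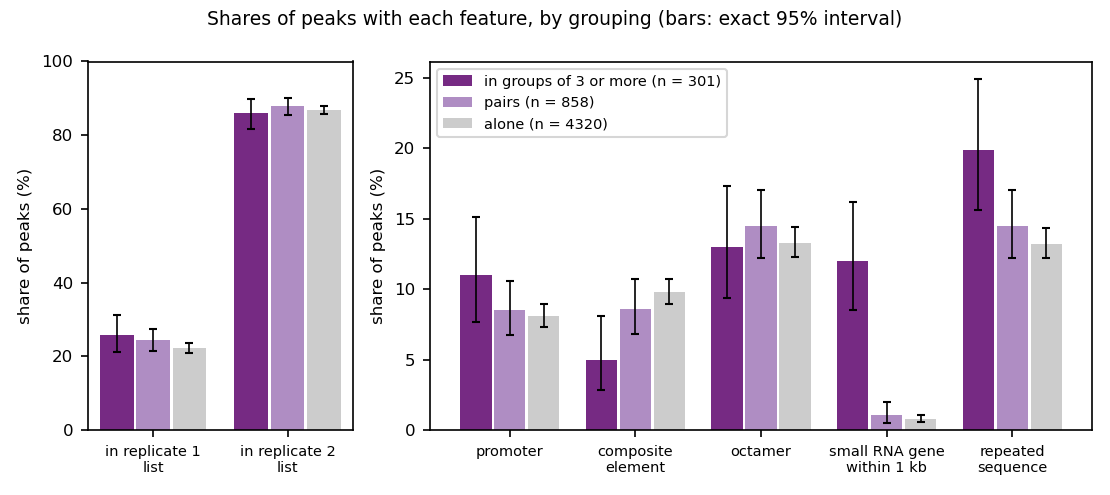
Shares in percent of peaks in groups of 3 or more (301), in pairs (858) and alone (4320) that were in each replicate list, at a promoter, with a composite element or octamer, within 1 kb of a small RNA gene, or with at least 50% repeated 31-base words. Lines are exact 95% intervals, which cover counting error only; the bars for small RNA genes, 12.0%, 1.05% and 0.787%, differ most.

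Other gene lists had smaller shares near a group than the pluripotency regulators, to be read against the 0.715% of all symbols. Stem cell genes had 4 of 35 (11.4%): Dppa5a, Tex14, Jarid2 and Zfp13. Wnt genes had 2 of 25 (8%), Tcf7l1 and Lef1, and Lef1 held 4 peaks of 4.41, 4.46, 4.99 and 6.46, none of them in the replicate 1 list. DNA and histone methylation genes had 1 of 17 (5.88%), Ehmt1, and FGF and ERK genes 1 of 20 (5%), Etv5. The 26 Hox genes had none near a group and 21 (80.8%) near some peak, beside 27.3% of all symbols near some peak. Hox genes stand side by side, so 1 peak can count for several of them. No gene was near a group in the LIF, Nodal, neuroectoderm, endoderm, mesoderm, trophectoderm, feeder fibroblast and somatic lists. Primed epiblast genes had 1 of 17, again Lef1. In lists of this length the share of all symbols comes to less than 1 gene, so a count of 0 is no departure from it.

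On mm10 the same joining gave 51 groups with 184 peaks from the authors' optimal list, which was selected by reproducibility. No stretch of chromosome 6 was left out there. Groups of 6, 3 and 19 peaks, the last the largest, lay on scaffolds outside the assembled chromosomes, and a group of 4 on chromosome X. The totals are therefore not directly comparable with those of the mm9 groups, all on autosomes. Positions were not converted between builds, so loci were compared by gene. Of 84 genes that name an mm9 group and matched RefSeq on GRCm38, 64 had an optimal peak within 50 kb of the gene, 31 had at least 3, and 16 had a peak of an mm10 group. For 14 of the 84 no member of their own mm9 group lay within 50 kb, so they could not be matched this way. Of the 68 with at least 3 members that near, 61 had an optimal peak, 31 at least 3 and 16 a peak of an mm10 group. Among these 16 were Rif1, Ehmt1, Jarid2, Dppa5a, Zscan10, Etl4, Myo10 and Pla2g1b. Sox2, Esrrb, Tcf7l1, Etv5, Klf5, Mtf2 and Eed were not, although each had 2 or 3 optimal peaks near. Klf2 was not among the 84, since its group is named for Gm10282, which had no RefSeq match. It had 3 optimal peaks within 50 kb, and whether they belong to an mm10 group is not given here.

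Near the small RNA arrays the optimal list held a smaller share of the mm9 number of peaks than near the other named groups. The sets were not chosen alike. Most arrays were named for their number of mm9 peaks and the rest after their values were seen. Most of the other groups were named for their signal or for a list gene. Every peak within 50 kb of 1 gene per group was counted, whether or not it was a group member or lay on a small RNA gene. So counted, the 8 arrays had 42 peaks in the mm9 list and 13 in the optimal list, or 31%. These 42 are not the 42 group members given further above. The 20 other named groups that were counted had 86 and 63, or 73.3%. These totals depend on which gene of a group was used. In the group of Fcgr1, BC107364 had 4 and 0. In the group of Zscan10 the gene used was Zfp13, with 3 and 6, where Zscan10 had 3 and 4. The group of Vmn2r-ps106, a gene without a RefSeq match, was not counted. The optimal list as a whole, with 3994 peaks, had 72.4% of the number in the mm9 list. Eapp had 8 and 1, Rdm1 7 and 1, Tex14 6 and 1, Pecr 7 and 2 and Kif2c 3 and 1, while Pla2g1b had 4 and 4 and Fcgr1 4 and 3. Rhou, the gene used for the ribosomal RNA array, had 3 and 0.

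With the genes used above, at most 50% of the number was left at 6 of the 8 arrays and at 5 of the 20 other groups. Those 5 were Lekr1, with 3 and 1, Grik3, Klf5 and Atf1, each with 4 and 2, and the repeated locus of Vmn1r238, with 5 and 0. The number was equal at Rif1 (3), Ehmt1 (3), Jarid2 (4) and Myo10 (6), and Sox2 had 3 and 2. The sources do not give the steps that separate the lists, so what lowered the number of peaks near the arrays was not tested.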

How the data were processed

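The authors deposited, on mm9, a broadPeak list for each replicate and one for the whole series, with a signal per peak, a −log10 p-value and a q-value (per the file headers, the accompanying descriptions). How replicates were combined and the aligner, peak caller and scaling of the signal are not given in the sources used here. The optimal reproducibility list that the authors deposited is on mm10, with its own signal, −log10 p-value, −log10 q-value and score. The relaxed and conservative lists were not used.

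From these lists, peaks of the whole-series list were joined by centre (at most 20 kb) and groups of 3 or more kept. A peak was in a replicate list when it overlapped a peak there by at least 1 bp. Genes and small RNA genes came from GENCODE M1 on NCBIM37, and sequence from the same build. Elements were searched within 100 bp of the centre, and 31-base words were counted over the genome. A named group was among the 10 with the most peaks, the 10 with the strongest peak, or had a member within 50 kb of the TSS of a pluripotency regulator or stem cell gene, and it took the name of the protein-coding gene nearest its strongest peak. The groups of Mef2c, Bai2, Kif2c, Pla2g1b, Eed, Lef1 and Lrp2 fall outside this rule and were named after their values were seen. The members and the 17 gene lists (399 of 400 symbols matched) were chosen with earlier results of these data known, and the small RNA genes after these values were seen. The result of 1 gene list is not reported here.

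No test was run: there is 1 group, and peaks are not replicates. Shares have exact 95% Clopper-Pearson intervals for counting error. Alternatives are other gaps, sizes, thresholds and lists. Grouping, overlap and element search were tested on simulated data. Python 3.11.15, pandas 2.3.3, SciPy 1.17.1, pysam 0.24.0 and samtools 1.23.1 were used.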

Additional observations from a re-analysis of the deposited data

How the results depend on the processing

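The number of groups, 88, and of clustered peaks, 301, follow the rule: 45 and 143 with a gap of 10 kb, 195 and 672 with 50 kb, 21 and 100 with 4 or more peaks, 21 and 73 with −log10 p of at least 10, and 51 and 184 on the optimal mm10 list. The mm10 counts include groups on scaffolds, and no stretch was left out for them. Built from 1 replicate's list alone they were 5 to 114 groups, 19 to 385 peaks, spans of 19.3 to 25.5 kb and median signals of 7.47 to 8.31 (each list has its own scale), with 0 to 22.2% of pluripotency regulators near a group and 10.1 to 36.8% of peaks beside a small RNA gene. The lower counts, and the share of 36.8%, are those of groups built from the list of replicate 1. The small RNA shares over all peaks of each replicate's list are not given here. The share of replicate 2 group peaks in the replicate 1 list was 22.6%, and that of replicate 1 group peaks in the replicate 2 list 94.7%. Composite shares on the own lists were 4.94 to 5.26%.

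The median span moved from 19.6 kb to 8.10 kb with a gap of 10 kb, 42.1 kb with 50 kb, 30.7 kb with 4 or more peaks and 13.1 kb on mm10. The share in the replicate 1 list, 25.9%, was 33.0% with 4 or more peaks, 46.6% with −log10 p of at least 10 and 17.9% with a reciprocal overlap of 50%, and the share in the replicate 2 list was 97.3% with −log10 p of at least 10. The composite share, 4.98%, was 2.00% with 4 or more peaks, 0.997% with 1 mismatch (1.90% of all peaks outside the left-out stretch) and 21.9% with 3 (28.8%). It was below that of all peaks at each number of mismatches. With 1 mismatch it rested on 3 peaks, and its interval of 0.206 to 2.88% includes the 1.90%. Without peaks of mostly repeated sequence the composite share was 6.54% (3.62 to 10.7%), and the share over all such peaks is not given here. Pluripotency regulators near a group, 29.6%, were 7.41% with 10 kb, 7.41% with 4 or more peaks and 3.70% with −log10 p of at least 10. The share of all symbols near a group is not given for these settings, which also gave fewer groups. Median signal was 6.75 with −log10 p of at least 10, a choice that itself removes weak peaks. The same strongest member in both replicates, 54.5% of the 11 groups without a tie, was 16.7% (1 of 6) with 10 kb and 100% (5 of 5) with 4 or more peaks. The Spearman's rho of 0.484 was 0.270 with 10 kb, 0.186 with 4 or more peaks and 0.176 with −log10 p of at least 10.

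The share beside a small RNA gene, 12.0%, was 6.40% with 50 kb, 31% with 4 or more peaks, 32.9% with −log10 p of at least 10 (1.74% of all such peaks) and 4.67% when peaks with at least 50% repeated 31-base words were left out. Without these repeated peaks there were 67 groups with 214 peaks, and without those beside small RNA genes 78 groups. Both alternatives, and those of the small RNA share, were chosen after seeing the data. Of 29 alternative counts (groups, peaks and pluripotency regulators), 13 were within 1.5 times the main count, and of 64 other values 38 were within the 95% interval of the main value. Depth is unknown, so a peak missing from the list of replicate 1 may lie below its detection.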
